A study of Rattus norvegicus with 4 samples.

Results

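Cadherins, protocadherins, neural cell adhesion molecules of the immunoglobulin family and integrins are the membrane proteins by which neurons, glia and vessels of the developing hippocampus attach to each other and to the matrix around them. Their messenger RNA levels were examined in the hippocampus of newborn rats after prenatal exposure to bisphenol A (BPA), a plasticizer with oestrogenic activity. The genes were chosen by symbol, as every row with a gene ID whose symbol is that of a numbered cadherin (Cdh), a protocadherin (Pcdh), an integrin alpha or beta subunit (Itga, Itgb), or one of Ncam1, Ncam2, L1cam, Nrcam, Nfasc, Chl1, Cntn1, Cntn2 and Cntn4. They were 96 of the 13984 genes with an ID, namely 18 cadherins, 40 protocadherins of the alpha, beta and gamma gene clusters, 10 protocadherins outside the clusters, 8 immunoglobulin family members, 12 integrin alpha subunits and 8 integrin beta subunits.

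RNA-seq was performed on the hippocampi of Wistar pups on postnatal day 1. Dams of 10 weeks of age received BPA at 5000 µg/kg body weight or the vehicle, corn oil, every day by intragastric administration, from gestation day 1 to delivery. There was 1 library for each combination of sex and treatment, 4 in all, and each library was a pool of 3 hippocampi, so no group had a replicate. Levels are given as FPKM (fragments per kilobase of model length, normalised to library size), which is a scale per length. The 4 values of a gene are always given with males first and, within a sex, the control before the BPA library. The steps between low values corresponded to a depth of about 8720000 to 9020000 fragments per library.

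Classical cadherins bind a like cadherin on the neighbouring cell and hold the junction through catenins and actin. Clustered protocadherins are expressed in different combinations in single neurons and give each neuron a surface identity that lets its branches avoid each other. Integrins are pairs of an alpha and a beta subunit that bind laminin, fibronectin and other matrix proteins, and the immunoglobulin family members (Ncam1, the L1 group and the contactins) guide and bundle axons.

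Of the 96 genes, 92 were listed in all 4 libraries and 78 of these had a mean of at least 1 FPKM, the limit set for any comparison. Itgb7 and Cdh19 were listed for males alone, and Itga10 and Cdh26 for females alone, in each case at no more than 0.1 FPKM. The other 14 genes were listed throughout at a mean below 1 FPKM. Among them were the integrin subunits of leukocytes, with Itgam at 0.73, 0.86, 1.19 and 0.81 FPKM, Itgal at 0.63 to 1.02 FPKM and Itgb2 at 0.44 to 0.8 FPKM, and the epithelial cadherins Cdh1 (0.86, 0.88, 1.07 and 0.45 FPKM) and Cdh3 (0.43, 1.13, 0.68 and 0.2 FPKM). Itgb4, the hemidesmosomal partner of alpha 6, had 0.39 to 0.89 FPKM, and Itgb3, the platelet subunit, 0.15 to 0.74 FPKM.

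The immunoglobulin family had the highest summed level, at 561, 577, 551 and 557 FPKM of the 1369, 1387, 1342 and 1345 FPKM of all adhesion genes. Ncam1, the neural cell adhesion molecule, was the most highly expressed gene of all families at 243, 254, 232 and 251 FPKM. L1cam, the founding member of the L1 group and an X-linked gene, was next among the genes of this family with an ID, at 113, 114, 110 and 110 FPKM. The contactins Cntn2 (61.0, 69.2, 52.4 and 54.8 FPKM) and Cntn1 (61.2, 55.0, 62.9 and 54.2 FPKM), which are anchored to the membrane by a lipid, overlapped in level and could not be ordered. Nrcam and Nfasc, the other L1 group members with an ID, lay at 37.1 to 46.2 and 30.5 to 35.8 FPKM, while Ncam2 and Cntn4 were lower, at 7.35 to 9.83 and 3.07 to 4.62 FPKM. Chl1, the remaining L1 group gene, had no row with an ID. Its protein was the best match of 2 new gene models, whose summed values were 186, 184, 229 and 217 FPKM. The shorter model had 96.5, 98.4, 116 and 113 FPKM and the longer one 89.5, 85.4, 113 and 104 FPKM. FPKM is a scale per length, so the sum overstates the level if both models are parts of 1 transcript. Chl1 was therefore not ranked against L1cam.

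Among the cadherins, Cdh2 (N-cadherin), the classical cadherin of neural tissue, stood highest at 74.3, 72.6, 77.5 and 82.1 FPKM. Cdh8, a type II cadherin, came next at 44.0, 51.3, 44.0 and 51.3 FPKM, and then Cdh13 (T-cadherin, which has no cytoplasmic tail) at 34.7, 34.9, 37.3 and 35.0 FPKM. The ranges of these 3 genes did not overlap, and neither did those of the next in order, Cdh11 (21.6 to 24.1 FPKM) and Cdh10 (16.6 to 17.6 FPKM). Below them lay Cdh5, Cdh9, Cdh6, Cdh22, Cdh20 and Cdh7, with means from 7.86 down to 2.26 FPKM. Each overlapped with its neighbours in that order except Cdh7, which lay below the others. Cdh4 (R-cadherin), another classical neural cadherin, was represented by 2 new gene models alone, with summed values of 35.0, 41.9, 26.5 and 29.3 FPKM.

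Of the protocadherins outside the clusters with a gene ID, Pcdh8 was the highest at 41.2, 43.6, 27.3 and 28.3 FPKM, with the 2 male libraries well above the 2 female ones. Pcdh19, an X-linked gene that binds in combination with N-cadherin, had 25.1, 22.9, 24.7 and 21.2 FPKM, lower in the BPA library of each sex. Pcdh17 had 18.3, 20.4, 19.4 and 15.1 FPKM, with the highest and the lowest value both in BPA libraries. Pcdh9, Pcdh7 and Pcdh20 lay close together at means of 13.3, 11.2 and 10.7 FPKM, and Pcdh18, Pcdh11x, Pcdh15 and Pcdh12 ran from 6.18 down to 1.33 FPKM. Pcdh1 and Pcdh10 were each represented by 1 new gene model alone, at 35.0, 36.1, 37.1 and 30.5 FPKM and at 21.3, 22.03, 20.5 and 20.2 FPKM. The female libraries of the Pcdh1 model thus lay above those of Pcdh8, and the male ones below.

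**Figure D1:**
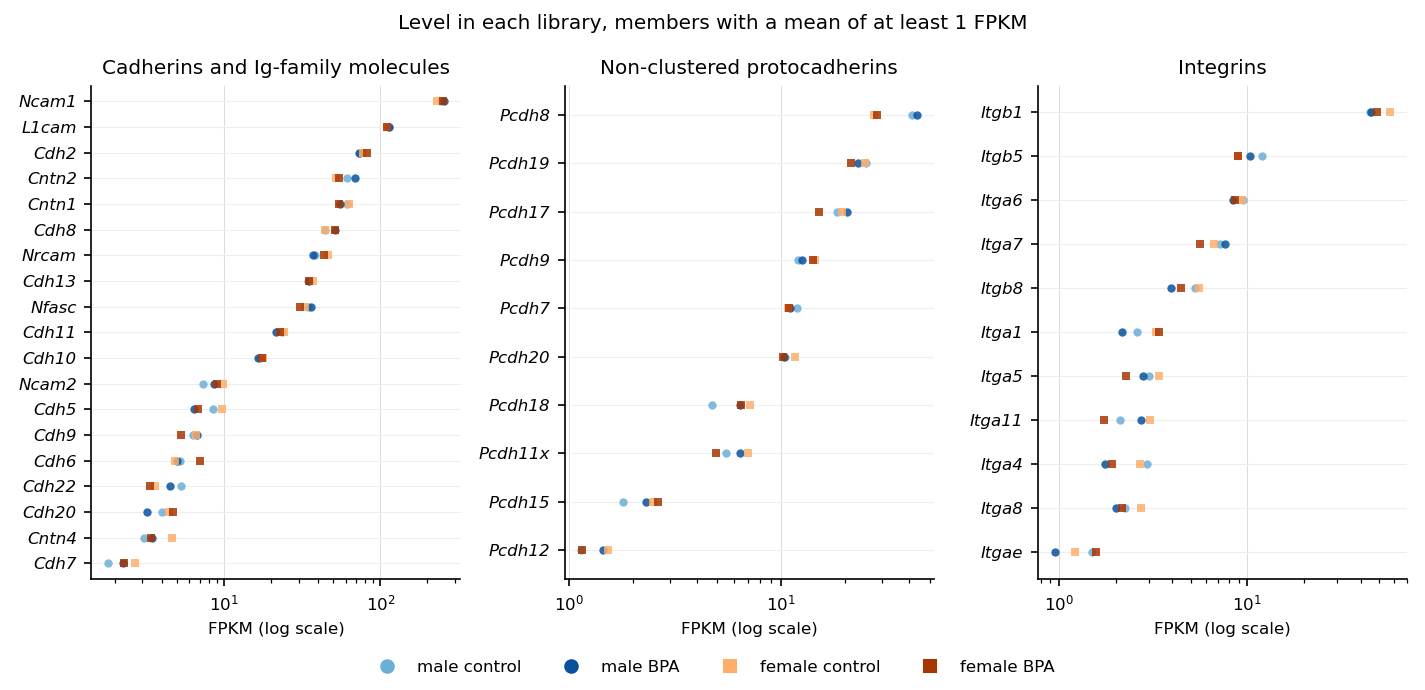
Level of each gene in each of the 4 libraries, on a logarithmic FPKM axis, for cadherins with immunoglobulin family members (left), protocadherins outside the clusters (middle) and integrins (right). Circles are male and squares female libraries, light shades control and dark shades BPA. The 4 symbols of a gene lie close together beside the differences between genes, with Ncam1 at 232 to 254 FPKM and Itgae at 0.95 to 1.57 FPKM as extremes, and Pcdh8 shows male and female libraries apart.

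The clustered protocadherins lie side by side on chromosome 18 of the rat. Alpha and gamma genes each contribute their own first exon, which is spliced to constant exons that the whole cluster shares, while the beta genes have a single exon each. The value of 1 alpha or gamma gene therefore depends on how fragments of the shared exons were divided among its neighbours, and closely related first exons are a second source of ambiguity. All 40 genes were listed in all 4 libraries, and only Pcdhac1 and Pcdhgc5 had a mean below 1 FPKM.

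Summed over its genes, the gamma cluster had 249, 255, 218 and 238 FPKM, the alpha cluster 70.0, 65.9, 67.7 and 70.0 FPKM and the beta cluster 32.9, 31.9, 36.4 and 33.4 FPKM. The largest contribution to the gamma sum was Pcdhgc3, one of the C-type genes at the end of the cluster, at 132, 123, 108 and 111 FPKM. Next in order was Pcdhga7 (27.7, 33.7, 23.9 and 35.4 FPKM). Below it lay Pcdhga2 (15.5, 15.9, 13.8 and 14.8 FPKM) and Pcdhga10 (12.5, 14.9, 15.2 and 15.5 FPKM), which overlapped and could not be ordered. The C-type gene of the alpha cluster, Pcdhac2, was likewise the highest of its cluster, at 12.9, 12.4, 13.6 and 14.4 FPKM, whereas its neighbour Pcdhac1 had 0.72, 0.08, 0.42 and 0.27 FPKM, the second value resting on 4 fragments. Beta genes were more even, from Pcdhb5 at a mean of 5.58 FPKM to Pcdhb6 at 1.28 FPKM.

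**Figure D2:**
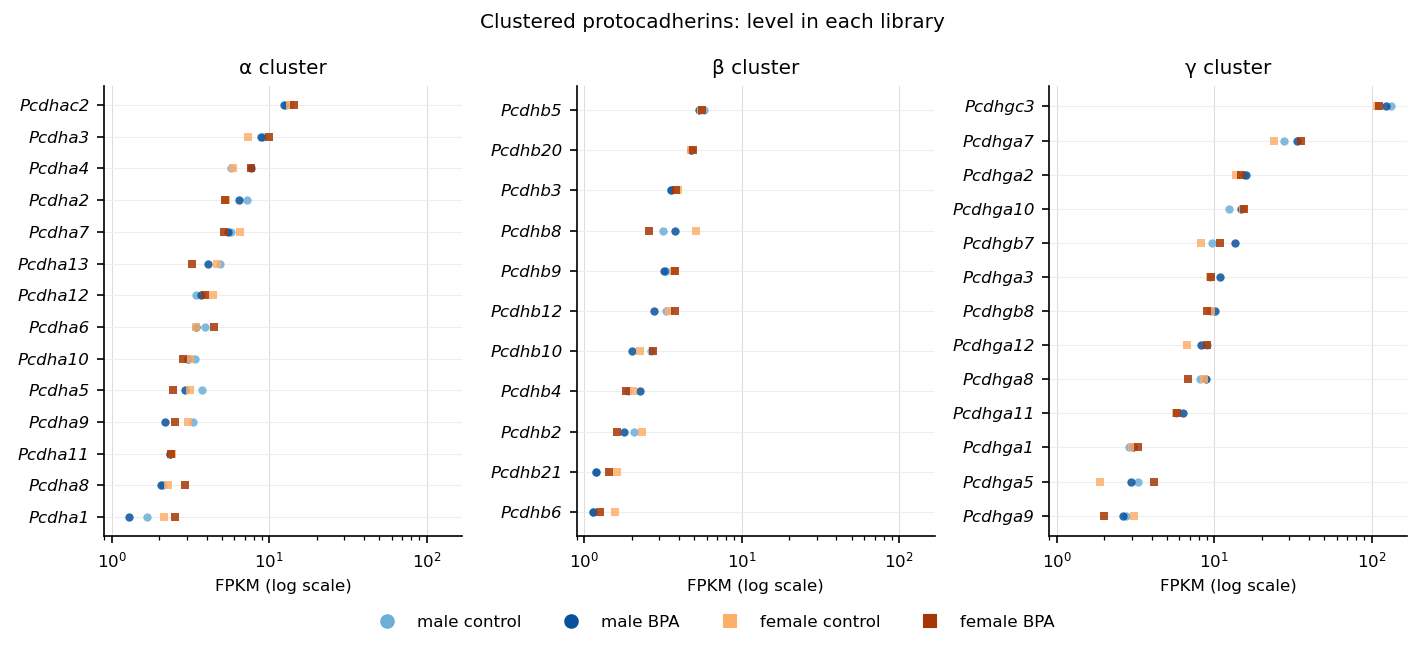
Level of the 38 clustered protocadherins with a mean of at least 1 FPKM in each library, on a logarithmic FPKM axis shared by the alpha, beta and gamma panels. Circles are male and squares female libraries, light shades control and dark shades BPA. The means in the beta cluster span 1.28 to 5.58 FPKM, and Pcdhgc3 lies alone at 108 to 132 FPKM.

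The promoters of these clusters are shown because each gene has its own, and the choice of promoter sets which first exon is used. Clustered protocadherin promoters are known for a conserved element with the core CGCT that is bound by CTCF. RefSeq windows of the assembly GRCr8, from 250 bases before to 50 bases after the gene start, were at hand for 62 of the 96 genes, including 11 of 11 beta, 13 of 14 gamma and 1 of 15 alpha genes. The longest word held in at least 75% of the windows was sought on the sense strand in each cluster. In the beta cluster it was the 10-base word GGTGGCGCTG, which stood in 11 of 11 windows, starting 52 to 229 bases (median 69) before the gene start. The word is in capitals in the following stretches from the beta genes with the highest levels, Pcdhb5 and Pcdhb20, from Pcdhb8, whose female libraries differed most, and from Pcdhb21, one of the lowest.
Pcdhb5: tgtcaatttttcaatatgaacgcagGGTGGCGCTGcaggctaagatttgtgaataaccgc
Pcdhb20: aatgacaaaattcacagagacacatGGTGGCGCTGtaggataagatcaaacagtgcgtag
Pcdhb8: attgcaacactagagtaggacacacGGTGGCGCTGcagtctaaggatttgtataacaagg
Pcdhb21: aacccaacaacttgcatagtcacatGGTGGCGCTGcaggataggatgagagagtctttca

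These stretches lie on the plus strand at chr18:29302389-29302448, chr18:29485795-29485854, chr18:29339243-29339302 and chr18:29492134-29492193 of GRCr8, in that order. On either strand the word was present in 66 of 27457 windows of all genes (0.24%), in 0 of 13 gamma windows, in 0 of 1 alpha window and in 0 of 37 windows of the other adhesion genes. Genes carrying the word had mean levels of 1.28 to 5.58 FPKM.

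In the gamma cluster the word was CGCTGTT, in 10 of 13 windows on the sense strand, starting 20 to 235 bases (median 51) before the gene start. It overlaps the beta word in the letters CGCTG. The stretches of the 3 highest genes carrying it, Pcdhga7, Pcdhga2 and Pcdhga10, and of Pcdhga5 and Pcdhga9, whose female libraries differed in opposite directions, are given with the word in capitals.
Pcdhga7: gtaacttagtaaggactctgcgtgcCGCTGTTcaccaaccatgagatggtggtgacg
Pcdhga2: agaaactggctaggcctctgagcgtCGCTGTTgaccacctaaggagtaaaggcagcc
Pcdhga10: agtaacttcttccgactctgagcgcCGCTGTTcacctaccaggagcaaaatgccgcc
Pcdhga5: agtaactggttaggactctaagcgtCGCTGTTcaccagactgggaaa
Pcdhga9: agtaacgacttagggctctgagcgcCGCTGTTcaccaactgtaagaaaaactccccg

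They lie on the plus strand at chr18:29794195-29794251, chr18:29745073-29745129, chr18:29825804-29825860, chr18:29770893-29770939 and chr18:29815773-29815829 of GRCr8, in that order. On either strand CGCTGTT stood in 11 of 13 gamma windows, 1 of 11 beta windows, 0 of 37 windows of the other adhesion genes and 576 of 27457 windows of all genes (2.1%). On the sense strand the windows of Pcdhgc3 and Pcdhgc5, the highest and the lowest gene of the cluster, and of Pcdhga1 did not contain these letters. Pcdhgb7 had no window.

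Integrin expression was dominated by the beta 1 subunit, the partner of most alpha subunits, with Itgb1 at 44.9, 45.4, 57.3 and 48.5 FPKM. Itgb5 and Itgb8, both partners of the alpha v subunit, had 11.9, 10.3, 8.92 and 8.87 FPKM and 5.25, 3.92, 5.55 and 4.46 FPKM. The highest alpha subunits with a gene ID were the laminin receptors Itga6 (9.53, 8.43, 9.31 and 8.56 FPKM) and Itga7 (7.12, 7.61, 6.67 and 5.6 FPKM), whose ranges did not overlap. Itga1, Itga5, Itga11, Itga4 and Itga8 all had means between 2.28 and 2.86 FPKM and could not be ordered. Itga3 and Itgav were represented by new gene models alone, with summed values of 13.6, 14.6, 12.6 and 12.7 FPKM and of 12.5, 9.69, 13.1 and 10.2 FPKM. The alpha v sum was lower in the BPA library of each sex. The highest single model of Itga3 had 8.3, 9.35, 7.1 and 7.73 FPKM, and that of Itgav 6.27, 5.11, 7.23 and 5.59 FPKM. Sums over models are not comparable with a single gene row on a scale per length, so neither gene was ranked against Itga6.

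The effect of prenatal BPA exposure was examined in each sex and in both sexes combined. Within a sex 1 library was set against 1, so the difference of log2(FPKM + 1) is a description without a test. It is given with the 95% exact conditional interval of the ratio of fragments, which covers counting error and nothing else. In both sexes combined, 2 BPA libraries were compared with 2 control libraries by limma.

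Itga4, the integrin alpha 4 subunit that pairs with beta 1 to bind fibronectin and Vcam1, had 2.94, 1.75, 2.70 and 1.92 FPKM. Both BPA libraries lay below both control libraries. Its difference was -0.52 in males, a ratio of 0.595 (0.424 to 0.838) from 58 against 95 fragments, and -0.34 in females, a ratio of 0.711 (0.505 to 0.997) from 62 against 87 fragments. Over both sexes the difference was -0.43 (limma SE 0.20, adjusted p = 0.973), so it did not pass the test. Under quantile normalization it was -0.49 in males and -0.19 in females. The paper reports the opposite direction in males by quantitative RT-PCR, with Itga4 significantly increased after BPA, and no such increase in females. The reason for this disagreement was not tested. The other beta partner of alpha 4, Itgb7, was listed at no more than 0.04 FPKM. Leukocytes also carry alpha 4. The 6 blood leukocyte markers analysed here summed to 64.8 to 68.4 FPKM, most of it Coro1a (50.02 to 57.8 FPKM), with the defining marker Ptprc at 0.29 to 0.45 FPKM. The meningeal and vessel wall markers were lower with BPA in 7 of 8 genes in males and 8 of 8 in females, and their sum went from 94.6 to 69.8 and from 167 to 80.7 FPKM. Their part in the Itga4 difference was not tested, and fewer cells of a type and less RNA per cell cannot be told apart in such tissue libraries.

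Integrin alpha subunits as a group were lower with BPA in 6 of 8 tested genes in males and in 6 of 8 in females, with a median difference of -0.14 and -0.22 on the log2 scale, compared with -0.0041 and -0.0375 over all 10857 genes tested. None of the 8 passed the limma test at the adjusted threshold. Itga6 had differences of -0.16 and -0.11, and Itga8, the receptor of nephronectin, -0.11 and -0.23. Itga11, a collagen receptor subunit, went in opposite directions, with 2.12 and 2.74 FPKM in males (0.26) and 3.04 and 1.73 FPKM in females (-0.57). Itgae was also opposite at -0.35 and 0.21, but both of its counting intervals included a ratio of 1. Itga5, the fibronectin receptor subunit, had differences of -0.07 and -0.43.

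Of the 3 beta subunits tested, Itgb8 was the one whose treatments did not overlap. It was at -0.35 in males (ratio 0.747, interval 0.640 to 0.869) and -0.26 in females (0.804, 0.693 to 0.930), from 300 against 393 and 332 against 412 fragments. Under quantile normalization the female difference was -0.16. The limma estimate was -0.30 (SE 0.16, adjusted p = 0.973). Beta 8 with alpha v activates latent transforming growth factor beta and is found in radial glia and astrocytes. The markers of those cells were lower with BPA in 7 of 8 genes in each sex, beside 5533 of all 10857 genes in males and 6199 in females. They summed to 1371, 1224, 1371 and 1253 FPKM, most of it Fabp7 (884, 792, 873 and 839 FPKM). Other lists were also mostly lower, with cycling cell markers at 6 of 8 in males and 7 of 8 in females. Oligodendrocyte lineage markers were lower in 6 of 8 and 5 of 8. The part of radial glia and astrocyte content in the Itgb8 values was not tested. The summed models of Itgav gave -0.33 in males and -0.33 in females. For Itgb1 the female control library was the highest of the 4, with a difference of 0.02 in males and -0.24 in females (ratio 0.846, interval 0.790 to 0.906).

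Cdh5 (VE-cadherin), the junctional cadherin of endothelium, had 8.48, 6.44, 9.69 and 6.82 FPKM, and again the BPA libraries were below the controls. The differences were -0.35 (ratio 0.759, interval 0.606 to 0.949) and -0.45 (0.704, 0.567 to 0.873), and limma gave -0.40 (SE 0.14, adjusted p = 0.973). The endothelial marker list, which did not include Cdh5, had 5 of 8 genes lower in males with a sum of 103 and 101 FPKM, and 8 of 8 lower in females with a sum of 120 and 98.5 FPKM. Most of each sum was Cldn5, at 65.8, 63.5, 68.4 and 61.0 FPKM. The part of endothelial content in the Cdh5 values was not tested. Pcdh12, an endothelial protocadherin, had 1.15, 1.45, 1.54 and 1.16 FPKM, with differences of 0.19 and -0.23 whose intervals included a ratio of 1.

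Of the 11 cadherins tested, Cdh8 alone was higher with BPA in both sexes, by 0.22 in males and 0.22 in females (ratios 1.17 and 1.17, intervals 1.09 to 1.25 in both). Its BPA libraries did not overlap with the controls, and its limma adjusted p was 0.973. Cdh2 had differences of -0.03 and 0.08, and Cdh13 had 0.01 and -0.09. Cdh6, a type II cadherin singled out after its values were seen, had 5.24, 5.03, 4.89 and 7.07 FPKM, so the female BPA library alone stood above the others (0.45 in females and -0.05 in males).

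The clustered protocadherins are counted by cluster. Of 13 gamma genes tested, 9 were higher with BPA in males and 10 in females, whereas of 14 alpha genes 2 were higher in males (11 lower) and 6 in females (8 lower). Of the 11 beta genes 4 were higher in males (5 lower) and 5 in females (6 lower). Over all 10857 genes tested, 5275 were higher with BPA in males (5533 lower) and 4634 in females (6199 lower). Alpha and gamma genes share exons within their cluster, so their counts are not independent. The difference between clusters was not tested. As a sum, the gamma cluster differed by 0.03 on the log2 scale in males and 0.13 in females, the alpha cluster by -0.09 and 0.05, and the beta cluster by -0.04 and -0.13.

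Pcdhga7 gave the smallest limma p for BPA among the adhesion genes. Male control and BPA had 27.7 and 33.7 FPKM (0.28, ratio 1.22, interval 1.12 to 1.33), and female control and BPA 23.9 and 35.4 FPKM (0.55, ratio 1.48, interval 1.35 to 1.62). Over both sexes the difference was 0.41 (limma SE 0.12, adjusted p = 0.973, or 0.356 with sex as a covariate). Pcdhgb7 had 9.72 and 13.5 FPKM in males (0.44) and 8.26 and 10.9 FPKM in females (0.36). Pcdha4 had 5.72 and 7.65 FPKM in males (0.36) and 5.90 and 7.66 FPKM in females (0.33). In all 3 genes both BPA libraries were above both controls and both counting intervals were above a ratio of 1, but none passed after adjustment (adjusted p = 0.973 for each).

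Pcdhga5 and Pcdhb8 were past 0.5 in females alone. Pcdhga5 had 1.88 and 4.13 FPKM in female control and BPA (0.83, ratio 2.197, interval 1.67 to 2.93) and 3.27 and 2.97 FPKM in males. Pcdhb8 was opposite, at 5.15 and 2.59 FPKM in females (-0.78, ratio 0.503, interval 0.358 to 0.719) and 3.16 and 3.80 FPKM in males (0.21). For both genes the female control library was the extreme of the 4 on one side and the female BPA library on the other. Pcdha13 and Pcdha5 were lower with BPA in both sexes, with log2 differences of -0.22 and -0.42 and of -0.29 and -0.26, males first.

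**Figure D3:**
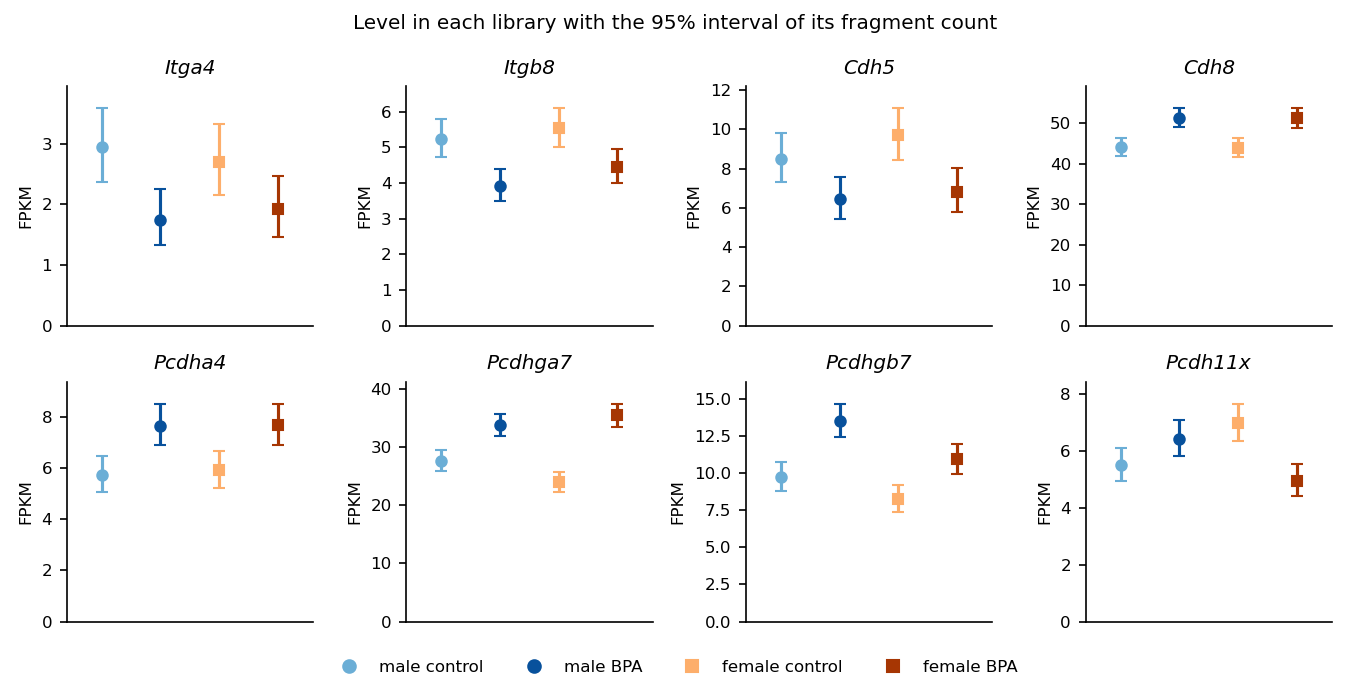
FPKM of 8 adhesion genes in each library, each axis starting at 0, with bars for the exact 95% Poisson interval of the fragment count, which covers counting error alone. Circles are male and squares female libraries, light shades control and dark shades BPA. Itga4, Itgb8 and Cdh5 lie lower and Cdh8, Pcdha4, Pcdhga7 and Pcdhgb7 higher in the BPA library of each sex, and Pcdh11x goes in opposite directions.

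Immunoglobulin family members differed by small amounts. Ncam1 was higher with BPA by 0.07 in males and 0.12 in females, with intervals of the ratio of 1.02 to 1.07 and 1.06 to 1.11, since each library held 12040 or more of its fragments. Cntn1, which joins Cntnap1 at the paranodal junction of axons, had differences of -0.15 and -0.21 (ratios 0.898 and 0.861), with both BPA libraries below both controls. L1cam had 0.01 and -0.0001. Cntn2, Ncam2 and Cntn4 were higher in males (0.18, 0.20 and 0.14), while in females Cntn2 had 0.06, Ncam2 -0.11 and Cntn4 -0.35. Nrcam (-0.04 and -0.08) and Nfasc (0.06 and -0.11) differed by less, as did the Chl1 models (-0.02 and -0.08).

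Protocadherins outside the clusters were higher with BPA in 7 of 10 genes in males and in 3 of 10 in females, with medians of 0.12 and -0.15. Over all 10857 genes tested, 5275 were higher in males and 4634 in females, with medians of -0.0041 and -0.0375. Pcdh17 and the X-linked Pcdh11x went in opposite directions in the sexes. Pcdh11x had 5.49 and 6.43 FPKM in males and 6.97 and 4.95 FPKM in females, and its differences of 0.20 and -0.42 had counting intervals of the ratio of 1.01 to 1.35 and 0.611 to 0.823. Pcdh17 had 0.15 and -0.34, with intervals of 1.01 to 1.23 and 0.697 to 0.865. Pcdh19 was lower in both, with -0.13 and -0.21. L1cam, the third X-linked gene, had 0.01 and -0.0001.

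Counted over the 78 genes tested, few differed by 0.5 or more on the log2 scale in a sex. In males 0 were higher, against 1.34% of all genes, and 1 was lower (Itga4, 1.28%), against 2.06%. In females 2 were higher (Pcdhga5 and Pcdhga7, 2.56%), against 1.17% of all genes, and 2 were lower (Itga11 and Pcdhb8, 2.56%), against 4.93%. In both sexes in the same direction there were 0, against 0.543%. At the smaller size of 0.3 in both sexes, 2 were higher (Pcdha4 and Pcdhgb7, 2.56%), against 0.792%, and 2 were lower (Cdh5 and Itga4, 2.56%), against 2.63%. The nearest genes outside that size were Pcdhga7 (0.28 in males) and Itgb8 (-0.26 in females).

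By counting error alone, the interval of the ratio left out 1 for 21 genes in males (26.9%, against 25.1% of all genes) and for 30 in females (38.5%, against 34.8%). In the same direction in both sexes there were 10 (12.8%, against 8.46%), namely Cdh8, Ncam1, Pcdha4, Pcdhga7 and Pcdhgb7, which were higher, and Cdh5, Cntn1, Itga4, Itgb8 and Pcdh19, which were lower. Both BPA libraries lay above or both below the controls for 25 genes (32.1%, against 33.5%). Each share lay near that of all genes, the same-direction share being the furthest above it.

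The limma test over both sexes called 0 of the 78 genes at an adjusted p under 0.05, and 0.0% of the 13542 rows tested. At an unadjusted p under 0.05 it gave 4 (Cdh5, Pcdha4, Pcdhga7 and Pcdhgb7, 5.13%), against 4.7% of all rows. With 2 libraries against 2, an exact permutation test of a single gene cannot give a two-sided p below 0.333. The direction was the same in both sexes for 36 genes, of which 14 were higher and 22 lower, and it was opposite for 39, beside 2631 higher, 3539 lower and 4614 opposite of the 10857 genes tested. The other 3 adhesion genes had equal values in the male libraries.

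**Figure D4:**
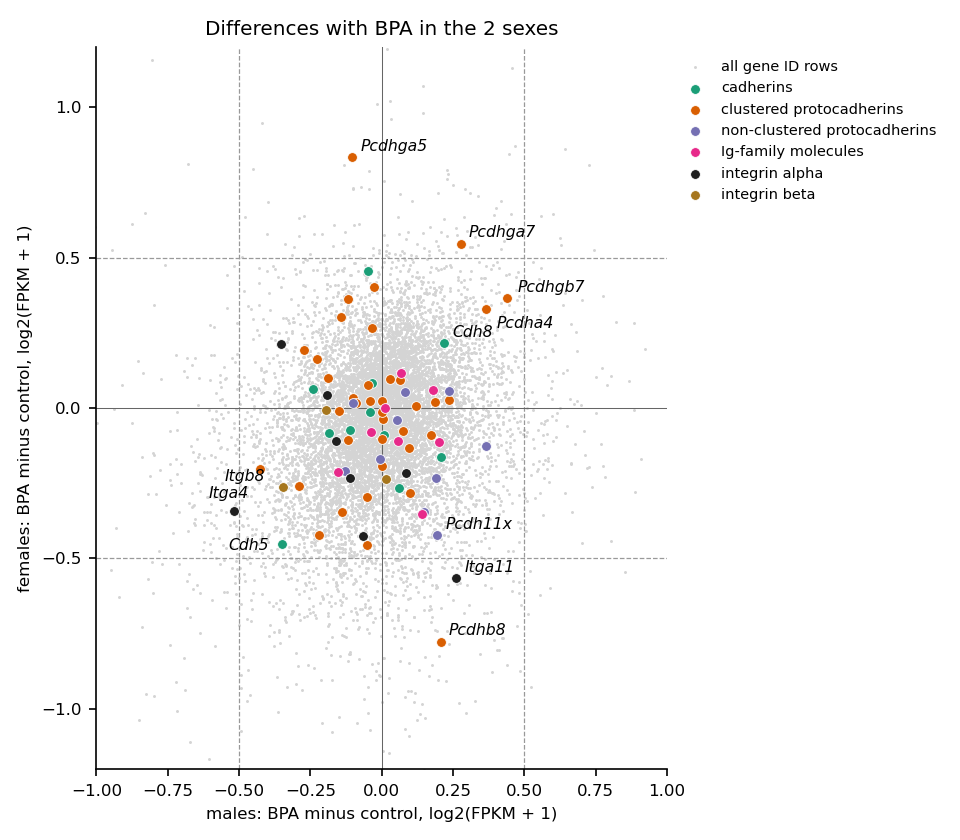
Difference of log2(FPKM + 1) between BPA and control in males (horizontal axis) and females (vertical axis) for the 78 adhesion genes, coloured by family, over all gene ID rows in grey, with dashed lines at 0.5 and -0.5. The axes leave out 69 of the grey rows. Itga4 and Cdh5 lie in the lower left and Pcdha4, Pcdhgb7 and Pcdhga7 in the upper right, and no adhesion gene is past 0.5 in the same direction in both sexes.

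Male and female libraries were compared in the same way, 2 against 2. The limma test called 0 of the 78 genes at an adjusted p under 0.05, against 0.00738% (1 of the 13542 rows). At an unadjusted p under 0.05 there were 4 genes (Pcdh8, Cntn2, Nrcam and Pcdhgc3, 5.13%), against 10.6% of all rows. Both female libraries lay above or both below the male ones for 35 genes (44.9%, against 43.4%).

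Pcdh8, an activity-regulated protocadherin of synapses, had the largest such difference, at -0.59 in females compared with males (limma SE 0.085, adjusted p = 0.133). With treatment as a covariate the same difference had an adjusted p of 0.0364, and no other adhesion gene passed in any of the fits run. Cntn2 was also lower in females (-0.27, SE 0.089, adjusted p = 0.387), as was Pcdhgc3 (-0.22, SE 0.074, adjusted p = 0.392), and Nrcam was higher (0.25, SE 0.081, adjusted p = 0.380). The summed models of Cdh4 gave -0.45 and those of Chl1 0.27. Pcdha1 (0.43), Cdh22 (-0.39), Itga1 (0.36), Pcdha2 (-0.31), Itgb5 (-0.29) and Cdh20 (0.28) also differed in size by more than these 3 genes, and none of them passed even before adjustment.

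**Figure D5:**
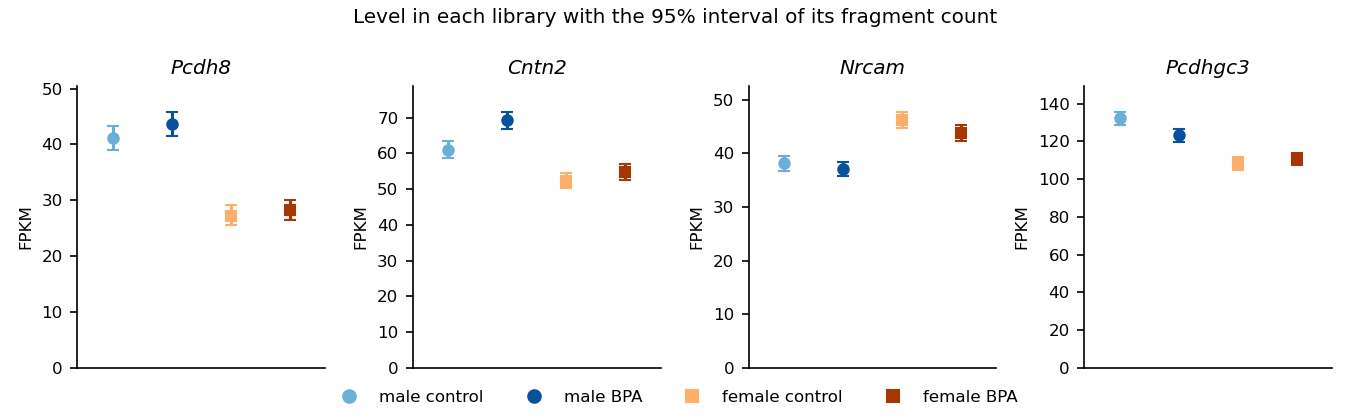
FPKM of Pcdh8, Cntn2, Nrcam and Pcdhgc3 in each library, each axis starting at 0, with bars for the exact 95% Poisson interval of the fragment count, which covers counting error alone. Circles are male and squares female libraries, light shades control and dark shades BPA. Pcdh8 lies at 41.2 and 43.6 FPKM in males and at 27.3 and 28.3 FPKM in females, and Nrcam is the gene of the 4 that is higher in females.

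The male and female pools also differed in tissue markers. Choroid plexus markers summed to 269 and 713 FPKM in the control and BPA libraries of males but to 9.49 and 49.7 FPKM in those of females, with Ttr at 256, 690, 3.96 and 42.4 FPKM, and the meningeal and vessel wall list was highest in female control. Of the hippocampal neuron markers all 8 were tested, with sums of 358, 360, 332 and 345 FPKM, and interneuron markers summed to 256, 255, 223 and 203 FPKM. Microglial markers summed to 41.0 to 51.5 FPKM and the thalamic or hypothalamic markers to 7.2 to 10.3 FPKM. Oligodendrocyte lineage markers summed to 145, 111, 119 and 99.4 FPKM and cycling cell markers to 114, 98.2, 115 and 101 FPKM. Both of these sums were lower in the BPA library of each sex. The part of marker differences between male and female pools in Pcdh8, Cntn2, Nrcam and Pcdhgc3 was not tested, and sex and pool cannot be told apart.

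The partners of the adhesion proteins were examined as lists. None of their genes passed the limma test for BPA after adjustment. The direction counts stand beside 5275 genes higher with BPA in males and 4634 in females, of all 10857 tested. The catenins and other cadherin partners were balanced in males, with 4 of 8 higher and 4 lower, and 2 of 8 were higher in females. Ctnnb1 (beta-catenin) was at 226, 234, 220 and 211 FPKM and Ctnna2 (the neuronal alpha-catenin) at 48.4, 53.1, 47.0 and 59.7 FPKM, higher with BPA in each sex. The large atypical cadherins were higher with BPA in 5 of 6 genes in males and 4 of 6 in females, with Fat1 at 16.6, 20.4, 17.1 and 20.9 FPKM (0.29 and 0.28, limma adjusted p = 0.973).

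Integrin adaptors and kinases were lower with BPA in 8 of 14 genes in males and 11 of 14 in females, with medians of -0.03 and -0.14, beside 5533 and 6199 of all 10857 genes and medians of -0.0041 and -0.0375. Parvb, an adaptor that links integrins to actin, had 20.02, 17.4, 22.4 and 17.0 FPKM, and Fermt3, the kindlin of blood cells, 1.80, 1.06, 1.70 and 1.02 FPKM. Ligands of integrins were higher with BPA in 7 of 12 genes in males and 3 of 12 in females. Fibronectin (Fn1, -0.13 and -0.45) and Vcam1 (-0.03 and -0.35), the ligands of alpha 4 beta 1, were lower mainly in females. Reelin (Reln), secreted by Cajal-Retzius cells, was at 75.5, 104, 76.5 and 79.0 FPKM, so that the male BPA library alone stood out.

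Among the partners of the L1 group and contactins, Cntnap1 was lower with BPA in both sexes by more than 0.5, with 3.46 and 1.87 FPKM in males (-0.64) and 3.01 and 1.39 FPKM in females (-0.75), and both BPA libraries were below both controls (limma adjusted p = 0.973). This is the partner of Cntn1, which was lower in the same libraries by a smaller amount. The other 5 tested genes of that list included Dcx, a marker of young neurons, which was higher in each sex (0.19 and 0.19), and Ptprz1, a contactin receptor of glia, which was lower (-0.22 and -0.16).

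Genes whose pattern over the 4 libraries was most like that of Itga4 were Chid1, Tjap1, Sprn, Itga6 and Tmem50b, each with a Pearson r of log2(FPKM + 1) above 0.95 over 4 points. This is a description of 4 libraries, and 294 of the 10856 other genes (2.71%) had an r of at least 0.95. The adhesion genes among them were Itga6 and Pcdha9, the latter at 3.26, 2.17, 3.04 and 2.51 FPKM.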

How the data were processed

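The authors deposited 1 table per library with FPKM values to 2 decimals (lowest 0.01). The submitters' processing notes name HISAT 0.1.6, Bowtie2 2.2.5, RSEM and the build rn6, and how strand and shared exons were counted is not given in the sources used here. The 4 tables were joined on gene ID to 17445 rows, of which 3461 are new gene models without an ID. For 11 genes of these families, 16 new models were assigned by their best protein match. The members and lists were chosen with earlier results of these data known.

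Rows in all 4 tables with a mean of at least 1 FPKM (13542, of which 10857 have a gene ID) were compared on log2(FPKM + 1), which understates changes of low genes. Under R 4.3.3, limma 3.58.1 (trended eBayes, no covariate) compared 2 BPA with 2 control and 2 female with 2 male libraries, with Benjamini-Hochberg adjustment over the 13542 rows. Each library is 1 pool, so its p-values measure the spread between pools, which takes in sex or treatment. Fragments were implied from FPKM, gene length and the depth at which 95.0% to 98.7% of low values lay within 0.15 of a whole number. Named genes are Itga4, the singly listed immunoglobulin family genes, the 3 highest of each family, the largest rises, falls, opposite and sex differences, and the X-linked genes. Other genes were named after their values were seen. Scripts were tested on simulated data. Alternatives were other scalings, pseudocounts, filters, thresholds, covariates, sums with new models and leaving out each library. Of the 96 genes, 82 were in the RefSeq gene table of GRCr8 with the same symbol, and that assembly was used only for promoter windows.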

Additional observations from a re-analysis of the deposited data

Results flagged for a closer look

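Pcdh17 and Pcdh11x went in opposite directions with BPA in the 2 sexes. For Pcdh17 the difference of log2(FPKM + 1) was 0.15 in males and -0.34 in females, and for Pcdh11x it was 0.20 in males and -0.42 in females. In each sex the counting interval of the ratio left out 1, and with 1 library per group the difference between the sexes was not tested.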

How the results depend on the processing

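The labels pair no libraries by replicate number, and the only pairing at hand was by sex. The fit with sex as a covariate, which compares the treatments within sexes, called 0 adhesion genes and 2 of the 13542 rows. At an unadjusted limma p under 0.05 it gave 6 adhesion genes and 1216 rows, against 4 and 637 without the covariate. The count of adhesion genes past 0.5 in males, 1 as reported, was 0 under quantile normalization, 3 with a pseudocount of 0.1, 3 without a filter, 0 at a mean of at least 5 FPKM, 0 at a threshold of 1 and 2 with new gene models summed. In females it was 4 as reported, 10 with a pseudocount of 0.1, 1 at a mean of at least 5 FPKM and 0 at a threshold of 1. The reported 4 were 2 higher and 2 lower, and the 10 were 3 higher and 7 lower. Under quantile normalization 3 were higher and 1 lower, with Itga11 at -0.44 and no longer past 0.5. Rules chosen after seeing the data gave 21 in males and 30 in females by counting interval, and, for both sexes in the same direction, 10 by counting interval and 4 at 0.3 against 0 as reported.

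The limma comparisons called 0 adhesion genes after adjustment, for BPA under every alternative and for sex under every one but treatment as a covariate, which called 1 (Pcdh8). At an unadjusted p each fit without a covariate, as reported, gave 4. Without 1 library the unadjusted count for BPA was 3 (male control), 1 (male BPA), 0 (female control) or 1 (female BPA), and that for sex 2, 1, 3 or 5 in the same order. The adjusted p of Pcdh8 for sex ranged from 0.0364 to 0.623 over all alternatives. In females 32 genes were higher and 46 lower with BPA, but 41 and 37 under quantile normalization and 39 and 39 under median-ratio scaling. Quantile normalization also moved the female differences of Cntn4 to -0.23, Itga7 to -0.13, Pcdha5 to -0.12 and Itgae to 0.34. Among the smaller female differences, it moved Itga6 to -0.03, Ncam2 to -0.04, Cdh2 to 0.04 and Ncam1 to 0.07. A pseudocount of 0.1 moved Itgae to -0.60 in males and 0.34 in females. Depth limits the low genes most, since the 58 to 95 fragments of Itga4 in a library leave its female interval close to 1.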
